A study of Homo sapiens with 16 samples.

Results

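NF-κB and immediate early response genes were followed by their histone acetylation in THP-1 cells, a human monocytic leukemia line. The 42 genes are known targets or regulators of NF-κB signaling, or genes that answer quickly to stress and growth factors. A window belonged to a gene when the deposited table named that gene as nearest and placed the window within 10000 bp of its transcription start site (TSS). All 42 genes had a window, with 174 of the 151654 windows in the table, between 1 and 12 for a gene. Windows were assigned by names and distances and no measured value, but the genes were chosen with earlier results of these data known.

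H3K27ac, an acetylation of histone H3 found at active promoters and enhancers, was measured by ChIP-seq in 4 groups of 2 libraries. WT cells carried Cas9 only. USP18-/- cells were made with CRISPR and grown from sorted single cells, so that loss of USP18 cannot be told apart from other properties of a clone. Both genotypes were left untreated or given IFNα (IFN) at 1000 U/ml for 6 h. USP18 is an inhibitor of type I interferon receptor signaling and removes the ubiquitin-like protein ISG15 from its targets. No label says that the libraries of a group came from separate cultures, and p-values then measure the spread between these libraries only.

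NF-κB is held in the cytoplasm by inhibitory IκB proteins, and receptors for TNF, interleukin 1 and microbial products release it through TRAF adaptors, ubiquitin ligases and the IκB kinase. Among its target genes are many of its own inhibitors, which end the response. Immediate early genes need no new protein for their induction and answer to MAP kinases and serum response factor as well as to NF-κB. In monocytes these programs control adhesion, coagulation, proteolysis and survival.

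The windows were 1000 bp wide and held between 9046141 and 12935453.5 tags per library in all. Levels are given as CPM, counts scaled to library totals that edgeR's TMM factors adjust. All windows have the same width, but levels were not corrected for input or copy number, which limits comparison between genes. Of the 174 windows, 170 passed the filter of 10 counts in 2 libraries, among 123276 windows tested. The others were BIRC3 -7096, TNFAIP6 -9412, TNIP3 -2738 and TRAF1 +607, where a name is followed by the distance in bp of the window centre from the nearest annotated TSS of the gene. At the USP18 TSS the libraries gave between 7.64 and 49.3 CPM, and acetylation there does not test the edit. Summed over 9 monocyte marker genes, the window nearest the TSS gave 189 to 216 CPM per library, a sum that holds markers moving apart (MPO from 49.0 and 56.9 CPM in untreated WT to 4.81 and 3.85 CPM in IFN treated USP18-/- cells, SPI1 from 69.3 and 64.8 to 131 and 128 CPM). Over the 5 of 8 markers of other cell types with a tested window the sum was 79.8 to 109 CPM, most of it at PECAM1, which monocytes also express. EPCAM and ALB had no window within 10000 bp. A window was called when edgeR's quasi-likelihood test gave a change above 2-fold and a Benjamini-Hochberg adjusted p under 0.05 over all tested windows. More cells carrying the mark and more of it per cell cannot be told apart in these bulk samples.

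In untreated WT cells the acetylation of the window nearest the TSS spread over a wide range. SOD2, the mitochondrial superoxide dismutase, had the highest level, with 53.3 and 47.9 CPM at -71 in replicates 1 and 2. That window also holds the TSS of another protein-coding gene, WTAP, and is the only one of the 174 of which this was true. TNIP1, whose product binds the deubiquitinase A20, followed with 45.5 and 41.0 CPM, then PLAU, whose nearest window is -1976, with 36.7 and 35.5, GADD45B with 33.4 and 32.2 and B4GALT1 with 31.0 and 31.7 CPM. The libraries of SOD2 and TNIP1 did not overlap, nor did those of any other pair of neighbours among these 5. At the other end stood MARCKS with 0.622 and 0.910 CPM, LIF with 1.45 and 0.273, TNFAIP2 (at +6883, its 1 window) with 1.04 and 0.910, TNFAIP6 with 1.14 and 0.910 and BIRC3 with 0.415 and 1.91 CPM. These 5 genes cannot be ranked, since the libraries of each overlap those of its neighbour. The level of SOD2 was above 96.7% of all tested windows within 10000 bp of a TSS, and that of MARCKS above 9.61% of them.

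IFN treatment of WT cells moved none of these windows past the threshold. Of 170 windows, 0 were called higher and 0 lower, while 0.343% of all tested windows were called higher and 0.0389% lower. An unadjusted p under 0.05 was reached by 11 windows with a higher and 4 with a lower mean in edgeR, 8.82% of the members' windows beside 8.93% of all tested windows, and DESeq2 also called 0 in either direction, with no adjusted p for 50 of the windows. The median log2 fold change was 0.04, beside -0.01 over all tested windows. By contrast, 20 of 30 windows of 8 typical interferon-stimulated genes were called higher in the same comparison, among them IFI44L -30 with a log2 fold change of 4.28 (SE 0.26, edgeR adjusted p = 2.9e-23). BIRC3 -70 had the highest fold change of the members, at 1.30 (SE 0.37, edgeR adjusted p = 0.083). It was called by edgeR when the fit held WT libraries alone, at 1.32 (adjusted p = 0.0402), and when WT untreated replicate 2 was left out, at 2.81 (adjusted p = 0.00475).

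In USP18-/- cells the same treatment changed 21 of the 170 windows, of which 16 in 12 genes were called higher and 5 in 3 genes lower, against 7.12% and 4.41% of all tested windows. The members' shares were 9.41% higher and 2.94% lower. Their median log2 fold change was 0.23, against -0.01 over all tested windows and 0.01 over those within 10000 bp of a TSS. Scaling by the sum of counts moved the median of all tested windows to -0.14 and that of the members to 0.10.

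DUSP5, a nuclear phosphatase that inactivates the kinase ERK, had the largest rise. Its window at +5258, in an intron at chr10:110502625-110503625 of hg38, gave 5.08 and 4.19 CPM in untreated WT, 4.57 and 3.50 in IFN treated WT, 5.08 and 5.80 in untreated USP18-/- and 26.2 and 25.1 in IFN treated USP18-/- cells. IFN treated USP18-/- libraries stood apart, and the other 6 lay between 3.50 and 5.80 CPM. The rise in USP18-/- cells was 2.24 (SE 0.17, edgeR adjusted p = 3.8e-19) on the log2 scale, and the difference from the effect in WT cells was 2.43 (SE 0.30, edgeR adjusted p = 1.2e-09). At +6507 of the same intron the libraries gave 5.18 and 3.64 CPM without and 4.47 and 4.01 CPM with IFN in WT cells, against 6.30 and 6.77 CPM without and 30.3 and 25.6 CPM with IFN in USP18-/- cells. There the effect of IFN was 2.10 (SE 0.17, edgeR adjusted p = 1.5e-18) in USP18-/- cells, with a difference between genotypes of 2.14 (SE 0.30, edgeR adjusted p = 4e-08). At the TSS itself, window -61 had an effect of 0.71, under the 2-fold threshold.

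CFLAR encodes c-FLIP, which blocks the activation of caspase-8, and has several annotated start sites, 12 windows in all. Its promoter window +230 was among the strongest of the set, with 84.6 and 84.3 CPM in untreated WT, 90.6 and 83.996 in IFN treated WT, 133 and 142 in untreated USP18-/- and 179 and 186 in IFN treated USP18-/- cells. At 3 windows inside the gene acetylation was called higher with IFN in USP18-/- cells. At CFLAR -3549, an intronic window at chr2:201125280-201126280, the libraries gave 4.46 and 4.55 CPM without and 5.96 and 4.94 CPM with IFN in WT cells, against 6.65 and 7.16 CPM without and 32.7 and 29.7 CPM with IFN in USP18-/- cells. IFN raised it in USP18-/- cells by 2.18 (SE 0.16, edgeR adjusted p = 1.6e-20), a log2 value that exceeded the effect in WT cells by 1.90 (SE 0.28, edgeR adjusted p = 1.7e-07). At CFLAR +4, in a UTR at chr2:201128833-201129833, the values were 4.46 and 4.91 CPM in untreated WT, 4.37 and 3.81 in IFN treated WT, 9.71 and 8.80 in untreated USP18-/- and 24.2 and 23.2 in IFN treated USP18-/- cells. Its rise with IFN in USP18-/- cells was 1.35 (SE 0.16, edgeR adjusted p = 2.2e-11) and the difference between the genotypes 1.55 (SE 0.29, edgeR adjusted p = 2.4e-05). The window at -148, in a UTR at chr2:201132317-201133317, rose by 1.26 (SE 0.17, edgeR adjusted p = 4.7e-09) on the log2 scale in USP18-/- cells. There the difference of IFN effects between the genotypes was not called.

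CSF1, the growth factor of monocytes and macrophages, rose at its TSS. Window +174, at chr1:109910285-109911285, gave 1.87 and 1.91 CPM in untreated WT, 3.28 and 2.47 in IFN treated WT, 6.30 and 7.45 in untreated USP18-/- and 24.2 and 20.8 in IFN treated USP18-/- cells. The groups of USP18-/- cells overlapped neither each other nor WT cells. IFN raised the level by 1.71 (SE 0.17, edgeR adjusted p = 6e-14) in USP18-/- cells on the log2 scale, and the difference from WT cells was 1.11 (SE 0.37, edgeR adjusted p = 0.035). Leaving out any of 5 libraries (WT untreated replicate 1 or 2, WT IFN replicate 2, USP18-/- untreated replicate 1, USP18-/- IFN replicate 1) ended the call of that difference, with adjusted p between 0.114 and 0.169.

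The central 200 bases of the windows with the strongest effect of IFN in USP18-/- cells are shown for hg38, plus strand, with capitals for matches to the κB consensus, the interferon-stimulated response element (ISRE, TTTCNNTTTC) or AP-1 (TGANTCA) on either strand. None of the 3 stretches overlaps an exon or holds a whole match. Matches to κB on both strands, 1 base apart, cross the left edge of DUSP5 +6507.
DUSP5 +5258, chr10:110503026-110503225: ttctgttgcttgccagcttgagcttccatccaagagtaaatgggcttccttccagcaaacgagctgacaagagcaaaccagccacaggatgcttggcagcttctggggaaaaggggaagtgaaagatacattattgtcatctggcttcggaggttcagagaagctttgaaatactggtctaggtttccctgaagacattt
DUSP5 +6507, chr10:110504275-110504474: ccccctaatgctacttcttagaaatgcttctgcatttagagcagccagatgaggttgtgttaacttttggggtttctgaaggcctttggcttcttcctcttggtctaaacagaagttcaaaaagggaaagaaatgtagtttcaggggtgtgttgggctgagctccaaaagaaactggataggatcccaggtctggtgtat
CFLAR -3549, chr2:201125681-201125880: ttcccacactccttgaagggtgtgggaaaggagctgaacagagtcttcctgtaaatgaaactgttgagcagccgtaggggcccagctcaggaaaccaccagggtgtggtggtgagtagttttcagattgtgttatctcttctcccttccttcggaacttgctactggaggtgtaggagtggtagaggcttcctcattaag

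Elsewhere in its window, DUSP5 +6507 held overlapping ISRE matches at -204 and -198 bp from the centre. At CSF1 +174 an ISRE match lay 84 bp from the centre and a κB match at -311 bp. AP-1 matches, not shown, lay 140 bp from the centre of DUSP5 +6507 and at -470 and -277 bp in CSF1 +174. Outside the members only the central 200 bases were searched, so matches in whole windows have no share to compare with. These ISRE and κB sites and the κB match of DUSP5 are shown with 10 bases on either side. The match is in capitals, read on the strand named. They are shown since they lie in windows that rose with IFN in USP18-/- cells.
DUSP5 +6507, chr10:110504165-110504174, minus strand: cttatttctcTTTCACTTTCtgagaaatgg
DUSP5 +6507, chr10:110504171-110504180, minus strand: ccaattcttaTTTCTCTTTCactttctgag
DUSP5 +6507, chr10:110504269-110504278, plus strand: agattcatctGGGGAACCCCctaatgctac
CSF1 +174, chr1:109910864-109910873, minus strand: ccaggcaaacTTTCACTTTCcccgggccga
CSF1 +174, chr1:109910469-109910478, minus strand: atcgtcccaaGGGACTTTCCctccaggcct

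Among the other genes of immediate early response and stress, DUSP1, PLK2 and SGK1 each had a window that rose with IFN in USP18-/- cells. DUSP1 is a MAP kinase phosphatase. Its window at -6418 gave 0.830 and 0.728 CPM without and 2.09 and 1.54 CPM with IFN in WT cells, against 1.58 and 0.967 CPM without and 3.83 and 3.38 CPM with IFN in USP18-/- cells, an effect of 1.48 (SE 0.35, edgeR adjusted p = 0.00045) in USP18-/- cells. In WT cells its effect was 1.22 (SE 0.45, edgeR adjusted p = 0.28), and the difference of 0.27 was not called. PLK2, a kinase of the polo-like family, had 5.69 and 5.03 CPM in untreated and 14.1 and 11.5 CPM in IFN treated USP18-/- cells at -2206, or 1.25 (SE 0.20, edgeR adjusted p = 1.7e-07) on the log2 scale. The difference of IFN effects between the genotypes was not called at any of the 6 PLK2 windows. At its TSS, PLK2 -30 at chr5:58459669-58460669, the libraries gave 16.3 and 14.4 CPM in untreated WT, 16.7 and 14.2 in IFN treated WT, 19.3 and 22.6 in untreated USP18-/- and 22.9 and 22.2 in IFN treated USP18-/- cells. There IFN had an effect of 0.02 (SE 0.15, edgeR adjusted p = 0.99) in WT and 0.11 (SE 0.13, edgeR adjusted p = 0.66) in USP18-/- cells, neither of them called.

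SGK1, a kinase regulated by glucocorticoids and serum, had windows called in both directions in untreated cells, the only member of which this was true. At its TSS, window -43 at chr6:134174439-134175439, the libraries gave 4.36 and 3.73 CPM in untreated WT, 3.28 and 3.09 in IFN treated WT, 6.21 and 8.90 in untreated USP18-/- and 10.3 and 9.02 in IFN treated USP18-/- cells. USP18-/- libraries were above all WT libraries, by 0.90 (SE 0.23, edgeR adjusted p = 0.0011) without and 1.60 (SE 0.23, edgeR adjusted p = 1.2e-08) with IFN, the second of which was called. The upstream window -754 was at 0.207 and 0.546 CPM in untreated WT, 0.397 and 1.03 in IFN treated WT, 1.23 and 1.16 in untreated USP18-/- and 3.38 and 3.85 in IFN treated USP18-/- cells. It rose with IFN in USP18-/- cells by 1.59 (SE 0.37, edgeR adjusted p = 0.00045), with no called difference from the effect in WT cells. Its genotype difference in untreated cells, 1.60 (SE 0.57, edgeR adjusted p = 0.023), was lost without WT untreated replicate 1 (1.11), without USP18-/- untreated replicate 1 (1.56) or 2 (1.63) by DESeq2 (1.65) and with TMM factors from windows within 3000 bp of a TSS (1.29), and was 2.46 without WT untreated replicate 2. With IFN it was 2.33 (SE 0.42, edgeR adjusted p = 2.4e-06), and 3.15 without WT IFN replicate 2. At SGK1 +4990, in a UTR, untreated WT cells had 1.66 and 1.55 CPM and untreated USP18-/- cells 0.175 and 0.580 CPM. The log2 difference was -2.08 (SE 0.60, edgeR adjusted p = 0.0041). Without USP18-/- untreated replicate 1 it was -1.45 and not called, and without replicate 2 it was -3.11.

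NF-κB pathway members TNIP2, RIPK2 and TRAF1 also rose in places with IFN in USP18-/- cells. TNIP2 binds A20 as TNIP1 does, and its intronic window at +9640 had 3.84 and 4.19 CPM in untreated WT, 4.37 and 5.35 in IFN treated WT, 7.70 and 6.87 in untreated USP18-/- and 17.3 and 18.6 in IFN treated USP18-/- cells, a rise of 1.29 (SE 0.17, edgeR adjusted p = 2e-09) with a difference between genotypes of 1.02 (SE 0.30, edgeR adjusted p = 0.012). That difference was not called, at 0.88 to 0.96, without WT untreated replicate 2, WT IFN replicate 1, USP18-/- untreated replicate 2 or USP18-/- IFN replicate 2. RIPK2, the kinase downstream of NOD receptors, had 2.38 and 2.73 CPM in untreated WT, 1.99 and 1.75 in IFN treated WT, 1.93 and 1.16 in untreated USP18-/- and 4.09 and 3.19 in IFN treated USP18-/- cells at +6497. Its rise of 1.22 (SE 0.33, edgeR adjusted p = 0.0023) was not called without USP18-/- untreated replicate 2 (0.92) or IFN replicate 1 (1.00), and the difference of 1.68 (SE 0.48, edgeR adjusted p = 0.0091) was not called without those libraries (1.37 and 1.44) or without WT untreated replicate 2 (1.57). TRAF1, an adaptor of TNF receptors, had 1.35 and 1.73 CPM without and 0.795 and 1.34 CPM with IFN in WT cells, against 1.05 and 2.13 CPM without and 3.11 and 3.76 CPM with IFN in USP18-/- cells at +4401. The difference of 1.66 (SE 0.56, edgeR adjusted p = 0.035) was lost, at 1.19 to 1.82, without WT untreated replicate 1 or 2, WT IFN replicate 1, USP18-/- untreated replicate 1 or USP18-/- IFN replicate 2. PLAUR, the urokinase receptor, had 6.74 and 8.55 CPM without and 6.96 and 9.26 CPM with IFN in WT cells, against 5.34 and 4.45 CPM without and 10.9 and 10.5 CPM with IFN in USP18-/- cells at -5080. Its rise with IFN was 1.12 (SE 0.20, edgeR adjusted p = 5.4e-06) in USP18-/- cells, and the difference of 1.05 (SE 0.29, edgeR adjusted p = 0.0066) fell under the threshold, at 0.85 to 0.98, without WT untreated replicate 2, WT IFN replicate 1, USP18-/- untreated replicate 2 or USP18-/- IFN replicate 1. MARCKS, a substrate of protein kinase C that binds actin, had 2.28 and 3.64 CPM without and 2.09 and 2.88 CPM with IFN in WT cells, against 3.33 and 3.48 CPM without and 7.83 and 5.26 CPM with IFN in USP18-/- cells at +1735. Its difference of 1.22 (SE 0.40, edgeR adjusted p = 0.033) was not called, at 0.83 to 1.25, without WT untreated replicate 2, WT IFN replicate 1, either untreated USP18-/- replicate or USP18-/- IFN replicate 1.

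Acetylation fell with IFN at PLAU and SERPINB2 in USP18-/- cells. PLAU encodes urokinase, the protease that activates plasminogen, and SERPINB2 encodes an inhibitor of urokinase. At PLAU 3 of 4 windows fell. At -1976, chr10:73908625-73909625, the libraries gave 36.7 and 35.5 CPM in untreated WT, 37.4 and 41.4 in IFN treated WT, 26.4 and 37.6 in untreated USP18-/- and 11.5 and 13.5 in IFN treated USP18-/- cells. At -3027 they gave 37.7 and 36.9 CPM without and 42.6 and 44.5 CPM with IFN in WT cells, against 30.5 and 36.2 CPM without and 13.3 and 14.3 CPM with IFN in USP18-/- cells. Window -4302 had 31.5 and 33.9 CPM in untreated WT, 28.8 and 30.7 in IFN treated WT, 17.2 and 19.5 in untreated USP18-/- and 6.41 and 7.33 in IFN treated USP18-/- cells. In each of the 3 windows both IFN treated USP18-/- libraries lay below the other 6. The effects of IFN in USP18-/- cells were -1.35 (SE 0.14, edgeR adjusted p = 9e-14) at -1976, -1.27 (SE 0.13, edgeR adjusted p = 4.6e-14) at -3027 and -1.42 (SE 0.16, edgeR adjusted p = 4.2e-12) at -4302. In WT cells they were 0.13, 0.22 and -0.14, none of them called. The differences between the genotypes were -1.48 (SE 0.18, edgeR adjusted p = 8.9e-10) at -1976, -1.49 (SE 0.17, edgeR adjusted p = 5e-11) at -3027 and -1.28 (SE 0.20, edgeR adjusted p = 7.7e-07) at -4302. The central 200 bases of a pair of these upstream windows are shown, on the same terms as above. An AP-1 match lies near the centre of the first and none of the 3 motifs in the second.
PLAU -3027, chr10:73907975-73908174: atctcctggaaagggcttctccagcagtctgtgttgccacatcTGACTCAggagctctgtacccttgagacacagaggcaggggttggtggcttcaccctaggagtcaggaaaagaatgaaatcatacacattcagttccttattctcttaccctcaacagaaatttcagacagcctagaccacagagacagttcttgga
PLAU -4302, chr10:73906700-73906899: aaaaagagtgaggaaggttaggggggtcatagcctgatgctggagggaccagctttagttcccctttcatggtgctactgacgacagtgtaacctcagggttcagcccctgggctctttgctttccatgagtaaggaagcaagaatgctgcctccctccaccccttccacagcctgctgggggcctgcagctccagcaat

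SERPINB2 +5058, at chr18:63892263-63893263 in an intron, gave 20.7 and 22.5 CPM in untreated WT, 19.2 and 15.4 in IFN treated WT, 4.29 and 3.48 in untreated USP18-/- and 2.05 and 1.03 in IFN treated USP18-/- cells. The fall with IFN in USP18-/- cells was -1.32 (SE 0.30, edgeR adjusted p = 0.00034). It was -0.95 and not called without USP18-/- IFN replicate 2, and -1.94 without replicate 1. The difference from WT cells, -1.003 (SE 0.34, edgeR adjusted p = 0.041), was just past the threshold, ended without any of 5 libraries (WT untreated replicate 1 or 2, WT IFN replicate 1, USP18-/- untreated replicate 1, USP18-/- IFN replicate 2; -0.64 to -1.06) and was -1.63 without USP18-/- IFN replicate 1. With the replicate number as a block it was -0.99 and not called. The window at -4063 of IER5, an immediate early gene, had low counts, with 1.05 and 1.74 CPM in untreated and 0.178 and 0.563 CPM in IFN treated USP18-/- cells. Its fall of -1.89 (SE 0.65, edgeR adjusted p = 0.022) was not called without USP18-/- untreated replicate 2 (-1.49) or IFN replicate 1 (-1.31), and was -2.91 without IFN replicate 2.

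In all, the effect of IFN differed between the genotypes at 15 windows of 11 genes, 11 of them with the higher and 4 with the lower effect in USP18-/- cells, against 4.61% and 2.55% of all tested windows. The members' shares were 6.47% and 2.35%. The count of 11 was 5 without WT untreated replicate 2 and 7 without USP18-/- untreated replicate 2 or USP18-/- IFN replicate 1. Scaling moved the split as well, to 6 higher and 6 lower with the sum of counts and to 7 and 5 with the totals of the tag directories. Apart from the libraries named above, the differences at CSF1, MARCKS, PLAUR, TNIP2 and TRAF1 were lost with the sum of counts, and all of these but that of TRAF1 with the tag totals. PLAUR and TNIP2 were also lost with TMM factors from windows within 3000 bp of a TSS. With the median of each 10 Mb stretch taken out, the differences at CSF1 and MARCKS were not called. DESeq2 did not call the differences at CSF1, MARCKS, PLAUR, RIPK2, SERPINB2 and TNIP2, and gave no adjusted p for that at TRAF1.

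**Figure D1:**
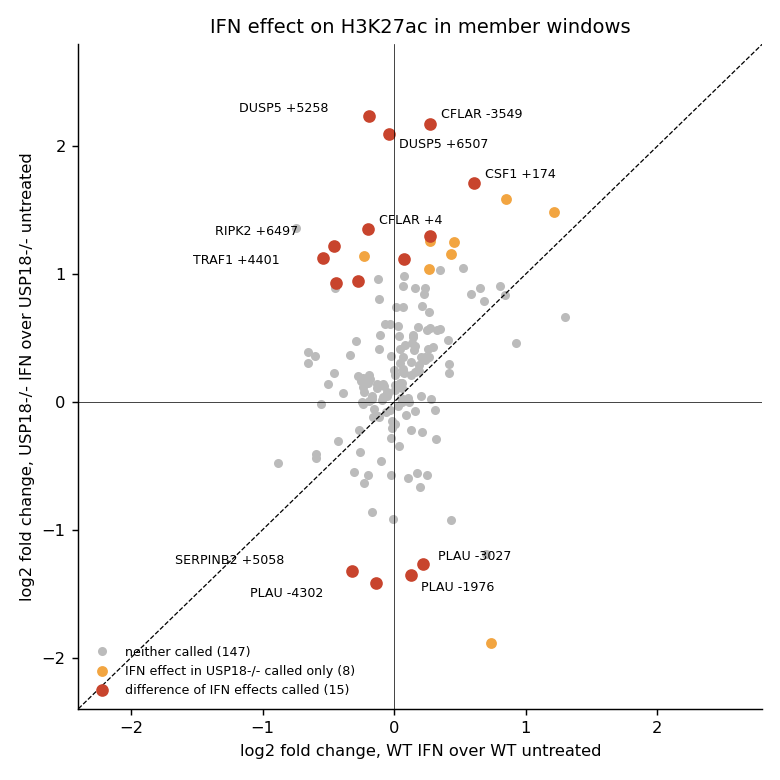
Log2 fold change of H3K27ac with IFN in WT cells (x axis) and in USP18-/- cells (y axis) for the 170 tested windows of the 42 genes. Red marks the 15 windows whose effects differed between genotypes, orange the 8 called in USP18-/- cells only by the effect itself, and the dashed line stands for equal effects. DUSP5 lies highest, at 2.24 and 2.10 in USP18-/- cells, and 3 PLAU windows lie between -1.27 and -1.42.

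**Figure D2:**
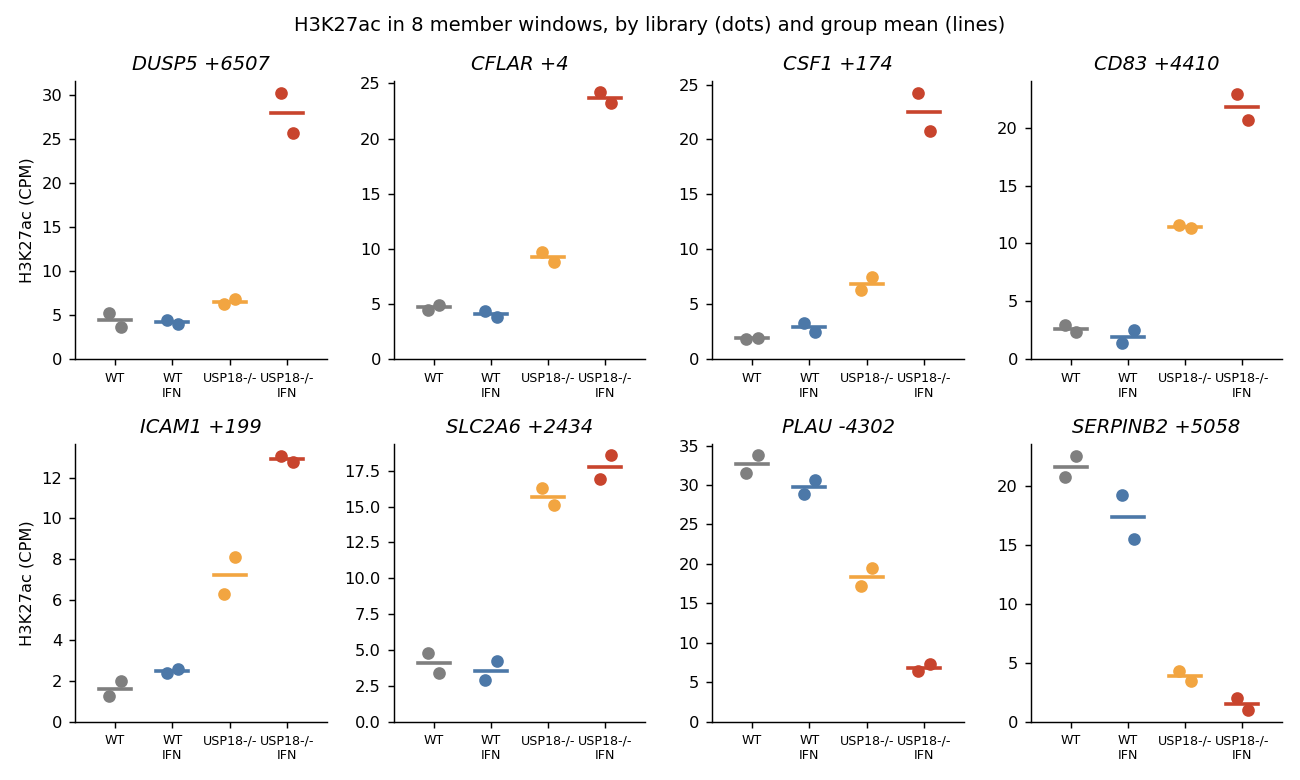
H3K27ac (CPM, linear axis from 0) in the window of each of 8 genes with the largest genotype difference under IFN, named by distance from the TSS in bp. Each dot is 1 library and each line the mean of the 2 libraries of a group. DUSP5 +6507 and CFLAR +4 are highest in IFN treated USP18-/- cells, ICAM1 +199 and SLC2A6 +2434 are above WT also in untreated USP18-/- cells, and PLAU -4302 is lowest in IFN treated USP18-/- cells.

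Untreated USP18-/- and WT cells differed at 35 of the 170 windows. In USP18-/- cells 25 windows of 13 genes were higher and 10 windows of 5 genes were lower, against 5.69% higher and 10.8% lower over all tested windows. The members' shares were 14.7% and 5.88%. Their median log2 fold change was 0.47, against -0.02 over all tested windows, 0.20 over those within 10000 bp of a TSS and 0.31 over those within 3000 bp. Within 3000 bp, 21 of 93 windows were called higher and 2 lower (22.6% and 2.15%), against 7.38% and 4.51% of all tested windows at that distance, and their median was 0.61. Beyond 3000 bp, 4 of 77 were higher and 8 lower (5.19% and 10.4%), close to the 6.25% and 9.73% of all tested windows 3000 to 10000 bp from a TSS, and the median was 0.17. The direction of this count depends on the scaling: TMM factors from windows within 3000 bp of a TSS gave 12 higher and 18 lower, the sum of counts gave 18 and 12, and the former moved the median of all tested windows to -0.33 and that of the members to 0.16. A change of scaling shifts all windows alike, so it cannot alter the distance of 0.49 between the members' median and that of all tested windows. The distance is smaller to windows within 10000 bp of a TSS, whose median was 0.20.

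ICAM1, the adhesion molecule by which leukocytes bind endothelium, was higher in untreated USP18-/- cells in all 4 of its windows. ICAM1 +199, at chr19:10270540-10271540, gave 1.24 and 2.002 CPM in untreated WT, 2.38 and 2.57 in IFN treated WT, 6.30 and 8.12 in untreated USP18-/- and 13.1 and 12.8 in IFN treated USP18-/- cells. At -397 the libraries gave 3.01 and 4.19 CPM without and 3.78 and 4.32 CPM with IFN in WT cells, against 11.2 and 12.4 CPM without and 17.4 and 14.5 CPM with IFN in USP18-/- cells. Both untreated USP18-/- libraries exceeded all WT libraries, with and without IFN, in each of the 4 windows. The log2 differences in untreated cells were 2.12 (SE 0.27, edgeR adjusted p = 7.9e-10) at +199 and 1.70 (SE 0.21, edgeR adjusted p = 2.2e-10) at -397. The remaining windows at -808 and -1188 had values of 1.47 and 1.22. Neighbouring ICAM1 windows overlap and share tags.

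CD83, a surface protein of activated antigen-presenting cells, was higher in untreated USP18-/- cells by the largest factor. At +6252, in an intron at chr6:14123386-14124386, the libraries gave 0.830 and 1.001 CPM in untreated WT, 1.99 and 1.24 in IFN treated WT, 9.45 and 8.90 in untreated USP18-/- and 16.5 and 18.03 in IFN treated USP18-/- cells. The untreated genotypes differed by 3.30 (SE 0.29, edgeR adjusted p = 3.7e-16), and with IFN by 3.40 (SE 0.24, edgeR adjusted p = 1.3e-21). At +4410, chr6:14121544-14122544, they gave 2.90 and 2.37 CPM in untreated WT, 1.39 and 2.47 in IFN treated WT, 11.6 and 11.3 in untreated USP18-/- and 22.96 and 20.7 in IFN treated USP18-/- cells. Without IFN the genotypes differed there by 2.12 (SE 0.23, edgeR adjusted p = 7.7e-13) and with IFN by 3.50 (SE 0.22, edgeR adjusted p = 5e-24). The effect of IFN was higher in USP18-/- than in WT cells by 1.38 (SE 0.36, edgeR adjusted p = 0.004), which was not called without WT untreated replicate 1 (1.23) or WT IFN replicate 1 (1.02). Its TSS window, +45, differed by 1.10 (SE 0.23, edgeR adjusted p = 6.2e-05) in untreated cells. The central 200 bases of both intronic windows are shown with an AP-1 match in capitals at +6252.
CD83 +4410, chr6:14121945-14122144: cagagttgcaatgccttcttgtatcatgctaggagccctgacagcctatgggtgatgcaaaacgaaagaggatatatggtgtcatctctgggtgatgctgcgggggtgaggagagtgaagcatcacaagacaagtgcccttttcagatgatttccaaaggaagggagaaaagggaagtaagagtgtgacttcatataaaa
CD83 +6252, chr6:14123787-14123986: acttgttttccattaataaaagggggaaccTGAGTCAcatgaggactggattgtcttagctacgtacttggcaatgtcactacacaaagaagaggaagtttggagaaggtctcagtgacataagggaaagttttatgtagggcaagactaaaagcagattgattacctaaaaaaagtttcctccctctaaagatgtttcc

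SLC2A6, a glucose transporter of the facilitative family, was higher in untreated USP18-/- cells at 4 of its 7 windows. At +2434, chr9:133476220-133477220, the libraries gave 4.77 and 3.37 CPM in untreated WT, 2.88 and 4.22 in IFN treated WT, 16.3 and 15.1 in untreated USP18-/- and 16.9 and 18.6 in IFN treated USP18-/- cells. At +1089 they gave 1.66 and 2.37 CPM without and 1.79 and 1.85 CPM with IFN in WT cells, against 7.0001 and 7.74 CPM without and 6.05 and 7.51 CPM with IFN in USP18-/- cells. Differences in untreated cells were 1.96 (SE 0.20, edgeR adjusted p = 1.2e-13) and 1.85 (SE 0.27, edgeR adjusted p = 1.5e-08). TRAF2, the adaptor that recruits ubiquitin ligases to TNF receptors, lies in the same part of chromosome 9 and was higher at -140, with 21.6 and 18.6 CPM in untreated WT and 45.2 and 44.97 CPM in untreated USP18-/- cells, a difference of 1.17 (SE 0.12, edgeR adjusted p = 6.8e-14). The 10 Mb stretch that holds both genes had a median genotype difference of 0.56 on the log2 scale over its tested windows, the largest of any stretch with a called window. With the median of each stretch taken out, SLC2A6 stayed called at +2434 (1.39), +1089 (1.29) and +417 (1.20) in untreated cells, while SLC2A6 +5 (0.83), TRAF2 -140 (0.61) and TRAF2 -3811 (0.50) were under the 2-fold threshold.

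BIRC3, a ubiquitin ligase of TNF receptor signaling and inhibitor of apoptosis, was higher in untreated USP18-/- cells at its promoter. BIRC3 -70, at chr11:102316880-102317880, gave 0.415 and 1.91 CPM in untreated WT, 2.88 and 3.09 in IFN treated WT, 3.85 and 4.84 in untreated USP18-/- and 7.47 and 6.20 in IFN treated USP18-/- cells. The difference in untreated cells was 1.83 (SE 0.34, edgeR adjusted p = 8.6e-06), and the untreated WT libraries spread widely, so that it was 1.17 without WT untreated replicate 1 and 3.35 without replicate 2. CSF1 +174 differed by 1.85 (SE 0.26, edgeR adjusted p = 1.1e-08) in untreated cells and CFLAR -148 by 1.50 (SE 0.24, edgeR adjusted p = 2.1e-07). Single windows of DUSP5, EGR3, IER3, SOD2 and TNIP2 were also called higher, with log2 values from 1.01 to 1.26.

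Of the called windows, 5 held a match to the κB consensus (GGG, a purine, any base, A or T, a pair of pyrimidines, CC) in their central 200 bases. They were BIRC3 -70, CD83 +45, SLC2A6 +2434, TNIP2 +9640 and TRAF2 -3811. Each was higher in USP18-/- than in WT cells without IFN, with IFN or in both. This was the usual direction: of the 69 called windows, 25 were higher without and 47 with IFN, 22 of them in both. The sites are shown because they are the κB matches at the centre of changed windows, with 10 bases on either side and the match in capitals.
BIRC3 -70, chr11:102317285-102317294, minus strand: aaacccactcGGGGATTTCCatgacccaaa
BIRC3 -70, chr11:102317349-102317358, minus strand: ttaggacttaGGGGAACTCCagcggtaata
CD83 +45, chr6:14117696-14117705, plus strand: gctgcccgccGGGGAATCCCccgggctggc
SLC2A6 +2434, chr9:133476730-133476739, plus strand: gtgtagggcaGGGACTTCCCtctcctaccc
TNIP2 +9640, chr4:2746300-2746309, minus strand: tgagtcacccGGGGCTTCCCggtgtaggct
TRAF2 -3811, chr9:136882681-136882690, plus strand: gagcccacgtGGGAATCCCCtgagctgcgc

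Of the 69 windows called in any comparison, these 5 make 7.25%, against 6.47% of all 170 tested windows of the members, 3.75% of all tested windows within 10000 bp of a TSS and 2.93% of all tested windows. An ISRE match was also present in 5 called windows, or 7.25%, against 4.71% of the members' windows, 3.83% of those within 10000 bp of a TSS and 5.62% of all tested windows. These were CFLAR +230, CSF1 +174, EGR3 -2155, PLAUR -5080 and TNIP3 +8216. AP-1 matches occurred in 11.6% of the called windows, 14.1% of the members' windows, 9.12% of those within 10000 bp of a TSS and 13.2% of all tested windows. For CRE matches (TGACGTCA) the shares in this order were 2.90%, 2.35%, 1.17% and 0.578%. Matches to the CArG box of serum response factor (CC, a run of 6 A or T, GG) had 4.35%, 2.94%, 1.06% and 1.36%. Both strands were searched, and the letters of a CRE match hold no AP-1 match. The members were chosen for a known link to NF-κB, and matches describe letters and not binding. ISRE matches of called windows are shown, apart from CSF1 above and EGR3.
CFLAR +230, chr2:201116383-201116392, plus strand: gcttccaggcTTTCGGTTTCtttgcctcca
PLAUR -5080, chr19:43675428-43675437, plus strand: catggctctcTTTCTCTTTCtgtgtcattg
PLAUR -5080, chr19:43675448-43675457, plus strand: tgtgtcattgTTTCTGTTTCtctttctgat
PLAUR -5080, chr19:43675454-43675463, plus strand: attgtttctgTTTCTCTTTCtgattctttc
TNIP3 +8216, chr4:121156057-121156066, minus strand: gtagcagtcaTTTCCTTTTCcaattacact

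The windows lower in untreated USP18-/- cells belonged to TNFAIP8, SERPINB2, PLAU, TNIP3 and SGK1. TNFAIP8, a TNF-induced protein that limits apoptosis, was lower at 5 of its 12 windows. At -6553, chr5:119347720-119348720, the libraries gave 5.81 and 5.73 CPM without and 4.37 and 5.76 CPM with IFN in WT cells, against 0.700 and 0.967 CPM without and 1.07 and 0.845 CPM with IFN in USP18-/- cells. At +53, an annotated start site at chr5:119355373-119356373, they gave 13.9 and 12.2 CPM in untreated WT, 13.5 and 13.6 in IFN treated WT, 3.85 and 5.61 in untreated USP18-/- and 4.72 and 4.70 in IFN treated USP18-/- cells. The log2 differences were -2.78 (SE 0.34, edgeR adjusted p = 8.8e-11) and -1.47 (SE 0.20, edgeR adjusted p = 2.4e-09). The window at another start site, -39, had 27.4 and 23.8 CPM in untreated WT and 27.1 and 22.4 CPM in untreated USP18-/- cells, with a difference of -0.04 (SE 0.13, edgeR adjusted p = 0.86). The median over the 10 Mb stretch was -0.32.

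Both windows of SERPINB2 were lower in untreated USP18-/- cells. At +3390, chr18:63890595-63891595, the libraries gave 7.88 and 6.01 CPM in untreated WT, 3.97 and 3.50 in IFN treated WT, 0.875 and 1.45 in untreated USP18-/- and 0.712 and 0.939 in IFN treated USP18-/- cells. The differences in untreated cells were -2.57 (SE 0.31, edgeR adjusted p = 7.1e-11) at +3390 and -2.47 (SE 0.19, edgeR adjusted p = 7.5e-19) at +5058. PLAU -8512 had 6.84 and 4.37 CPM in untreated WT and 2.19 and 2.13 CPM in untreated USP18-/- cells and differed by -1.36 (SE 0.29, edgeR adjusted p = 7.3e-05), while PLAU -1976 differed by -0.18 (SE 0.12, edgeR adjusted p = 0.28). TNIP3 encodes another A20-binding protein. At TNIP3 +8216 the values were 2.90 and 1.91 CPM in untreated WT and 0.875 and 1.16 CPM in untreated USP18-/- cells. Its difference of -1.23 (SE 0.40, edgeR adjusted p = 0.011) was not called without WT untreated replicate 1 (-0.91) or USP18-/- untreated replicate 1 (-1.03), nor by DESeq2.

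**Figure D3:**
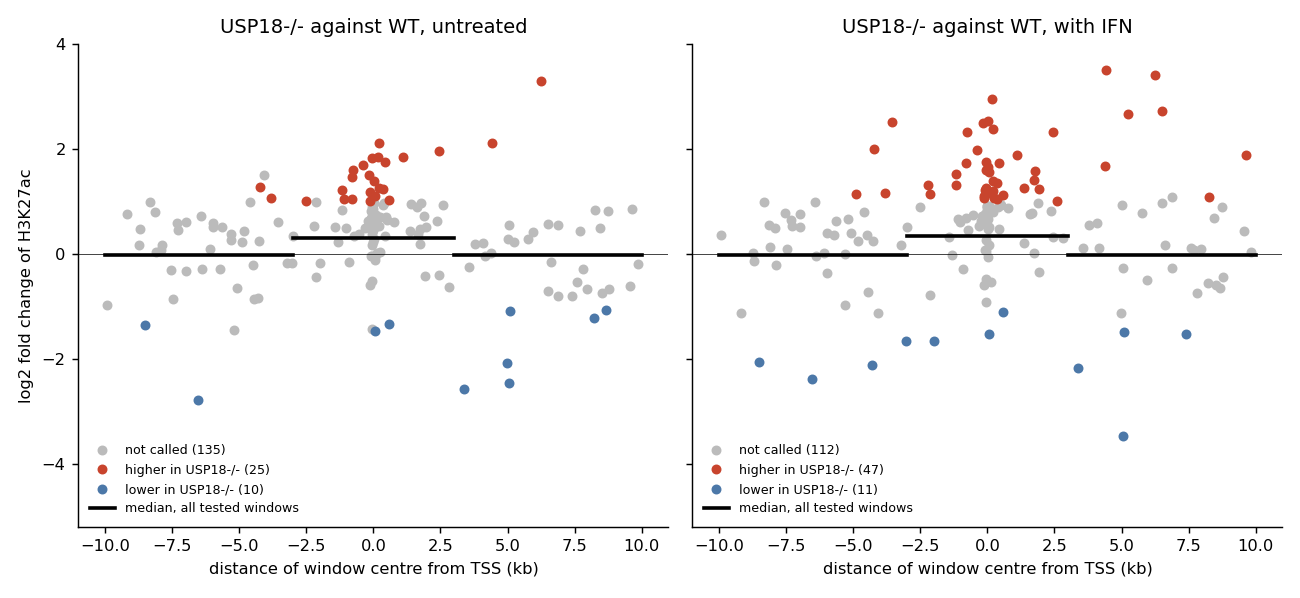
Log2 fold change of USP18-/- over WT cells (y axis) against the distance of the window centre from the TSS in kb (x axis) for the 170 tested windows, untreated (left) and with IFN (right). Red and blue mark windows called higher and lower, and black lines are medians of all tested windows within and beyond 3 kb of a TSS. The 25 windows called higher in untreated cells lie mostly near the TSS, and 8 of the 10 called lower lie beyond 3 kb.

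With IFN in both genotypes, 47 windows of 21 genes were higher and 11 windows of 4 genes were lower in USP18-/- cells, against 11.3% and 13.5% of all tested windows. The members' shares were 27.6% and 6.47%. Their median was 0.66, against 0.00 over all tested windows, 0.22 over those within 10000 bp and 0.34 over those within 3000 bp of a TSS. Within 3000 bp, 36 of 93 windows were higher and 3 lower (38.7% and 3.23%), against 14.5% and 5.88% of all tested windows at that distance. Beyond 3000 bp, 11 of 77 were higher and 8 lower (14.3% and 10.4%). That is close to the 11.4% and 12.7% of all tested windows 3000 to 10000 bp from a TSS. Of the 42 windows nearest the TSS, 1 per gene and not all within 3000 bp, 14 were higher and 2 lower. Over the 170 windows the counts were 26 and 17 with TMM factors from windows within 3000 bp of a TSS, and 29 and 14 with the sum of counts.

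The comparisons without and with IFN rest on different libraries, and 22 windows were called higher in both, 88.0% of the former and 46.8% of the latter. Both set USP18-/- against WT cells, and the same overlap over all tested windows was not computed. Among the windows higher in USP18-/- cells with IFN, the largest differences were those of CD83 given above, followed by CSF1 +174 with 2.96 (SE 0.20, edgeR adjusted p = 5.6e-22). DUSP5 differed by 2.72 at +6507 and 2.66 at +5258, CFLAR by 2.53 at +4 and 2.51 at -3549, ICAM1 by 2.38 at +199, SGK1 by 2.33 at -754 and SLC2A6 by 2.32 at +2434. Genes called higher with IFN alone were BIRC2, IER2, NFKBID, EHD1, LIF, MARCKS, PLK2 and TRAF1, which is no test of a difference between the comparisons.

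BIRC2 lies next to BIRC3 and encodes a related ubiquitin ligase. Its window at +24 gave 30.1 and 24.5 CPM in untreated WT, 29.8 and 27.2 in IFN treated WT, 41.1 and 35.98 in untreated USP18-/- and 69.9 and 59.4 in IFN treated USP18-/- cells, a difference of 1.18 (SE 0.11, edgeR adjusted p = 2e-15) with IFN. IER2, an immediate early gene, gave 24.7 and 21.7 CPM in untreated WT, 28.5 and 27.4 in IFN treated WT, 43.4 and 45.5 in untreated USP18-/- and 65.8 and 66.9 in IFN treated USP18-/- cells at +1383, a difference of 1.25 (SE 0.11, edgeR adjusted p = 2.6e-17). Both genes had levels in untreated USP18-/- cells above those of WT cells as well, by 0.51 and 0.94 on the log2 scale, under the 2-fold threshold. NFKBID, a nuclear IκB protein, had 16.3 and 15.03 CPM in IFN treated WT and 34.3 and 38.3 CPM in IFN treated USP18-/- cells at -72, a difference of 1.21 (SE 0.13, edgeR adjusted p = 2.7e-13).

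The 11 lower windows were those of SERPINB2, PLAU, TNFAIP8 and TNIP3. SERPINB2 +5058 had the strongest difference, -3.47 (SE 0.24, edgeR adjusted p = 2.2e-22), and 19.2 and 15.4 CPM in IFN treated WT and 2.05 and 1.03 CPM in IFN treated USP18-/- cells. It was -4.09 without USP18-/- IFN replicate 1. SERPINB2 +3390 differed by -2.17, TNFAIP8 by -2.38 at -6553 and -1.52 at +53, and TNIP3 +7419 by -1.54 (SE 0.28, edgeR adjusted p = 2.8e-06). All 4 PLAU windows were lower, by -2.11 (SE 0.15, edgeR adjusted p = 2.5e-21) at -4302 and -2.05 (SE 0.33, edgeR adjusted p = 1.8e-07) at -8512, the latter -2.74 without USP18-/- IFN replicate 1.

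By role, the 50 windows of the 12 genes of NF-κB signaling and feedback were called higher in USP18-/- cells 7 times without and 14 times with IFN, and lower 1 time each. The 52 windows of 12 immediate early, stress and cell cycle genes were called higher 4 and 13 times, and lower at 1 window of SGK1 without IFN. In comparison, 6.95% of all tested windows within 10000 bp of a TSS were higher and 6.50% lower without IFN, and 13.4% and 8.47% with IFN, so that the 7.69% of immediate early windows higher without IFN is near that share. The 6 genes of surface proteins, proteolysis and coagulation split, with 7 of 21 windows higher without IFN, all of ICAM1 and CD83, and 3 lower, of PLAU and SERPINB2. With IFN they had 7 higher and 6 lower. TNF-induced proteins and SOD2 had 1 of 21 windows higher and 5 lower without IFN, all 5 of them at TNFAIP8. Secreted factors and prostaglandin synthesis had 2 of 13 windows higher without IFN, both of CSF1, and glycosylation, transport and cytoskeleton had 4 of 13, all of SLC2A6. These counts follow the scaling described above.

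**Figure D4:**
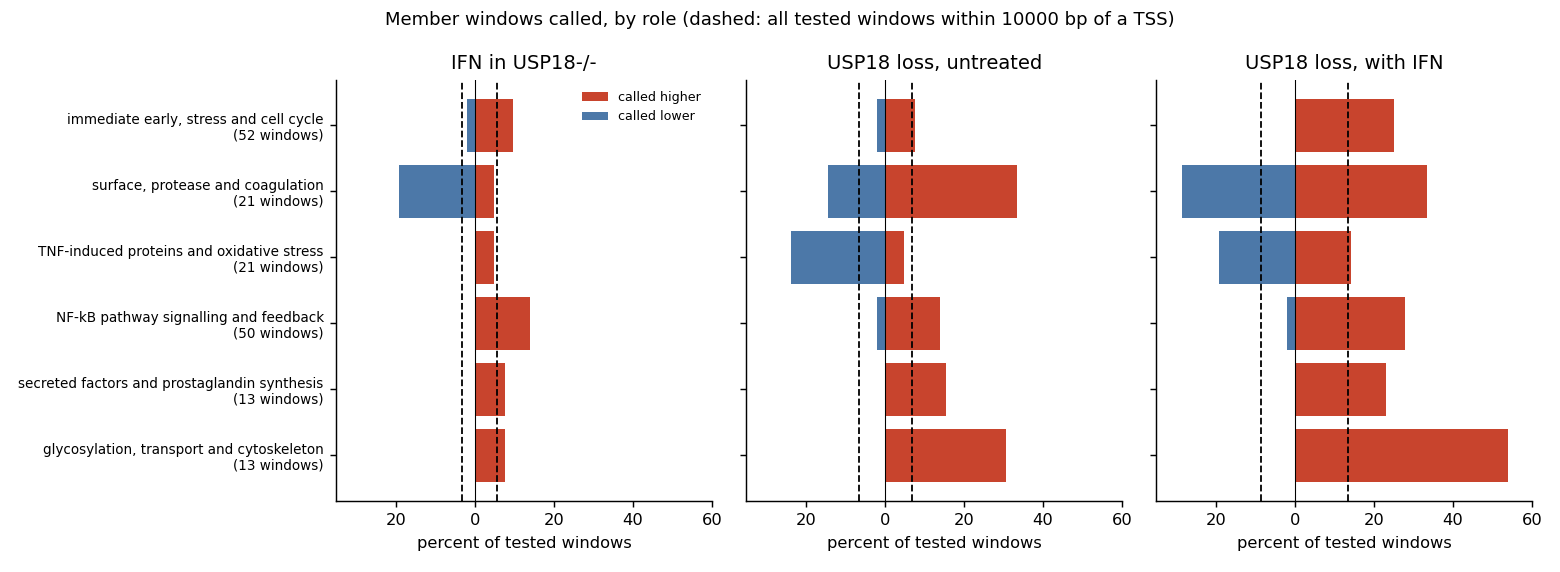
Percent of tested windows called higher (red, to the right) and lower (blue, to the left) in 6 role groups for IFN in USP18-/- cells and for USP18 loss without and with IFN. Dashed lines give the same percentages for all tested windows within 10000 bp of a TSS. Lower calls in the surface, protease and coagulation group came from PLAU and SERPINB2, and in the TNF-induced group from TNFAIP8.

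No window of 13 members was called in any comparison. They were B4GALT1, DUSP2, F3, GADD45A, GADD45B, HBEGF, KDM6B, MAP3K8, PTGS2, TNFAIP2, TNFAIP6, TNIP1 and ZC3H12A, with 42 tested windows. Their log2 values ranged from -0.92 to 1.05 for IFN in USP18-/- cells and from -1.44 to 1.00 for untreated USP18-/- over WT cells. An adjusted p under 0.05 without the 2-fold threshold was reached by 14 of these windows in the first of these comparisons and 18 in the second. GADD45B, a stress sensor, was at 58.3 and 57.6 CPM in untreated WT, 60.6 and 46.5 in IFN treated WT, 38.1 and 37.04 in untreated USP18-/- and 69.1 and 62.5 in IFN treated USP18-/- cells at +2822. Its effect of IFN in USP18-/- cells was 0.81 (SE 0.10, edgeR adjusted p = 4.7e-10), and it differed from WT cells by 0.92 (SE 0.15, edgeR adjusted p = 8e-07). TNIP1 was at 10.1 and 11.03 CPM in untreated and 5.34 and 5.82 CPM in IFN treated USP18-/- cells at +5961, with an effect of -0.92 (SE 0.19, edgeR adjusted p = 9.7e-05). MAP3K8, the kinase Tpl2, had 31.3 and 25.7 CPM in untreated WT, 28.4 and 27.6 in IFN treated WT, 40.3 and 39.8 in untreated USP18-/- and 54.3 and 48.3 in IFN treated USP18-/- cells at +3, and with IFN the genotypes differed by 0.87 (SE 0.11, edgeR adjusted p = 2.3e-10). F3, tissue factor, had 26.03 and 23.8 CPM in untreated WT, 28.2 and 28.7 in IFN treated WT, 18.7 and 15.9 in untreated USP18-/- and 21.6 and 19.3 in IFN treated USP18-/- cells at -42, and its difference in untreated cells was -0.52 (SE 0.13, edgeR adjusted p = 0.00093). PTGS2, the inducible cyclooxygenase, had 7.88 and 7.10 CPM in untreated WT, 7.05 and 6.79 in IFN treated WT, 7.88 and 5.80 in untreated USP18-/- and 9.43 and 10.3 in IFN treated USP18-/- cells at +45. KDM6B, an H3K27 demethylase, had 0.997 at -4585 in untreated cells, the highest of its 9 windows. The windows with few counts have wide errors, as TNFAIP6 -49 with a difference of -1.44 (SE 0.65, edgeR adjusted p = 0.078) in untreated cells.

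Other genes of the pathway were taken as a list of 26 genes. They were NF-κB subunits, inhibitors, receptors, adaptors and kinases, and the cytokines TNF, IL1B, CXCL8 and CCL3, with 81 tested windows. In untreated USP18-/- cells 19 of these were higher and 2 lower than in WT, and their median was 0.46 on the log2 scale. The shares were 23.5% and 2.47%, against 6.95% and 6.50% of all tested windows within 10000 bp of a TSS. Among the list's windows, BCL3 +4794 differed by 1.76 (SE 0.15, edgeR adjusted p = 2.1e-17) and CYLD -103 by 1.69 (SE 0.21, edgeR adjusted p = 1e-10). IFN raised 8 and lowered 1 of these windows in USP18-/- cells, CD40 -9701 with 3.60 and NFKBIZ -43 with 1.91 on the log2 scale. These were 9.88% and 1.23%. Over all tested windows the shares were 7.12% and 4.41%, and over those within 10000 bp of a TSS 5.73% and 3.22%. With IFN in both genotypes, 34 of the 81 windows were higher and 2 lower in USP18-/- than in WT cells. These were 41.98% and 2.47%, and the median was 0.83. A list of 19 immediate early transcription factors had 80 tested windows. Without IFN, 17 of them were higher and 2 lower (21.25% and 2.5%) in USP18-/- than in WT cells, the median being 0.60. Of these windows, FOSB -312 differed by 2.59 (SE 0.28, edgeR adjusted p = 1.3e-12). IFN raised 8 of the 80 (10%) in USP18-/- cells, ATF3 +1538 by 2.09. With IFN in both genotypes, 33 of the 80 were higher and 2 lower (41.25% and 2.5%) in USP18-/- than in WT cells, the median being 0.86. The members had 27.6% higher and 6.47% lower in that comparison, with a median of 0.66. Their share of higher windows was thus below that of both lists. Of 38 windows of monocyte markers, 2 were higher and 5 lower in untreated USP18-/- cells (5.26% and 13.2%). IFN raised 3 and lowered 7 of them in USP18-/- cells (7.89% and 18.4%). With IFN, 5 were higher and 10 lower in USP18-/- than in WT cells, MPO -1012 by -3.62 and LYZ -4779 by -2.96 on the log2 scale. The latter were 13.2% and 26.3%, against 13.4% and 8.47% of all tested windows within 10000 bp of a TSS. Whether these marker changes bear on the members was not tested. Of the 30 windows of typical interferon-stimulated genes, 24 rose with IFN in USP18-/- cells, the median log2 fold change being 3.02.

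**Figure D5:**
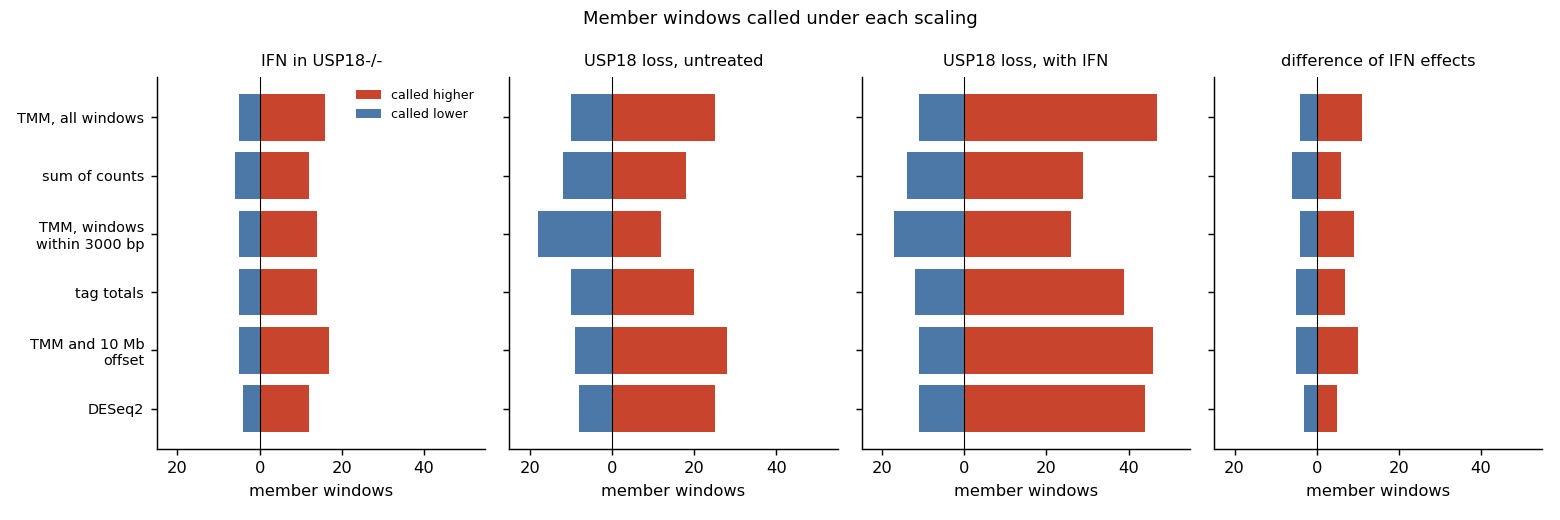
Number of member windows called higher (red) and lower (blue) in 4 comparisons under each scaling of the libraries and by DESeq2. The counts for IFN in USP18-/- cells range from 12 to 17 higher, while the split for untreated USP18-/- over WT cells goes from 25 and 10 to 12 and 18 with TMM factors from windows within 3000 bp of a TSS.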

How the data were processed

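H3K27ac ChIP-seq was analysed in WT and USP18-/- THP-1 cells, 4 groups of 2 libraries. Reads were aligned by the authors with Bowtie2 (genome build hg38), and HOMER then counted unnormalized tags in windows of 1000 bp centred on ATAC-seq peaks merged over samples. Versions are not given in the sources used here. The deposited values are expected counts, fractional tags without normalization, of which 52.2% were whole, and they were rounded. Tag totals in windows were 9046141 to 12935453.5 per library, and 0 value columns were left unmapped. Input libraries were not analysed here.

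Windows reaching 10 counts in 2 or more libraries were scaled by TMM and tested with edgeR 4.0.16 in R 4.3.3, with the quasi-likelihood test, 1 mean per group and Benjamini-Hochberg adjustment over 123276 windows. Called windows changed above 2-fold at an adjusted p under 0.05. The steps were tested on simulated data.

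Members, gene lists and tests were chosen with earlier results of these data known. Windows given with full values were the window nearest the TSS of PLK2 and SGK1, the 10 largest called changes per comparison and direction with at most 2 per gene, and the 5 highest and 5 lowest levels nearest the TSS. Other windows named were chosen after their values were seen. Alternatives covered scaling, filter, thresholds, distance, overlapping windows, a replicate block, offsets per 10 Mb stretch, DESeq2 1.42.0 and leaving out each library. Unrounded tags and leaving out the window with the TSS of another gene were added after seeing the data. Start sites and features came from GENCODE and sequence from hg38, which equals 60 of 60 RefSeq member promoters at the same coordinates.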

Additional observations from a re-analysis of the deposited data

Results flagged for a closer look

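At 15 member windows the effect of IFN differed between USP18-/- and WT cells by the test of the difference itself. On the log2 scale the effect was higher in USP18-/- cells by 2.43 at DUSP5 +5258 and 2.14 at DUSP5 +6507. It was higher by 1.90 at CFLAR -3549 and 1.55 at CFLAR +4. The excess was 1.68 at RIPK2 +6497, 1.66 at TRAF1 +4401 and 1.38 at CD83 +4410. Smaller ones were 1.22 at MARCKS +1735, 1.11 at CSF1 +174, 1.05 at PLAUR -5080 and 1.02 at TNIP2 +9640. Lower effects in USP18-/- cells were -1.49 at PLAU -3027, -1.48 at PLAU -1976, -1.28 at PLAU -4302 and -1.003 at SERPINB2 +5058. The differences at DUSP5, CFLAR and PLAU were called under each alternative that gave an adjusted p, and those at the other windows were lost under at least 1. Groups of 2 libraries are too small to test for a single deviating library.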

How the results depend on the processing

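Libraries number 2 per group and a single clone or few clones may stand behind each genotype. Depth gives wide errors for the windows with few counts. Without the fold threshold, the counts of member windows higher and lower were 54 and 12 for IFN in USP18-/- cells, 74 and 19 for untreated USP18-/- over WT cells, 93 higher with IFN, and 21 and 7 for the difference of the IFN effects. Within 3000 bp of the TSS they were 8 and 1, 2 lower in untreated cells, 3 lower with IFN, and 3 and 1. TMM factors from windows within 3000 bp gave 12 and 18 for untreated USP18-/- over WT cells and 26 and 17 with IFN. The sum of counts gave 29 higher with IFN and 6 higher for the difference of effects. Tag directory totals gave 7 and DESeq2 5 for the latter. Only the groups compared gave 1 higher for IFN in WT cells. The cause was not tested, apart from the fewer windows within 3000 bp.

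Leaving out 1 library gave 0 to 1 higher for IFN in WT cells, 13 to 17 higher and 4 to 6 lower for IFN in USP18-/- cells, 22 to 29 and 8 to 11 for untreated USP18-/- over WT cells, 45 to 53 and 11 to 13 with IFN, and 5 to 10 and 3 to 6 for the difference. A lone library is then assumed to vary like the other groups.

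Deviations of same-numbered libraries correlated at 0.00 to 0.05 over all tested windows. That gives no sign of pairing by replicate number, but noise at windows with few counts could hide one. With a replicate block the counts were 15 and 5 for IFN in USP18-/- cells, 26 and 10 for untreated USP18-/- over WT cells, 47 and 11 with IFN, and 12 and 4 for the difference. Of the 62 called results that the naming rule chose, which leaves out the differences at TNIP2 and PLAU -4302, 49 were called under each alternative that gave a value, and 0 reversed. DESeq2 gave no adjusted p for 13 to 50 member windows per comparison.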
